A study of Laccaria bicolor with 18 samples.

Results

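The genes described here are the 140 gene models of the ectomycorrhizal basidiomycete *Laccaria bicolor*, of 23130 counted (0.605%), whose transcripts were more abundant in the stipe than in the cap of the basidiocarp at each of 3 developmental stages. They were chosen by RPKM, which scales the reads of a gene model by transcript length and library size. In every stage the mean RPKM of the 3 stipe libraries had to be at least 2 times that of the 3 cap libraries and at least 5, and within each tissue the highest stage mean had to be under 4 times the lowest. Of the 141 gene models that met these bounds, 1 was left out by its number. The stipe to cap ratios and the stage means therefore chose the genes, and the values below describe them. They are not evidence that the genes differ between the tissues or keep their level over the stages, and no p-value is given for them.

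Basidiocarps of strain S238N came from a nursery, where they fruited beneath Douglas fir seedlings inoculated with the fungus, and were parted into stipe and cap. The 6 groups were early stipe, early cap, medium stipe, medium cap, late stipe and late cap, each with 3 numbered libraries, 18 in all. Neither the number of basidiocarps behind a library nor an age in days was given, and the labels name no treatment. RNA came from whole stipes and caps, so that more cells of a kind and more RNA per cell cannot be told apart.

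The stipe is the stalk of the mushroom. It is built of hyphae that run along its length and lift the cap by elongation, which in other mushrooms goes along with loosening of the chitin and glucan cell wall, and it conducts water, nutrients and stored carbon from the mycelium to the cap. The cap carries the gills, on which the basidia pass through meiosis and form spores.

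The libraries held 38976106 to 90888294 counted reads (median 54676654.5). The fewest reads behind any value of the 140 genes were 43 in a stipe library and 16 in a cap library, and 10 genes had under 50 reads in a library. Replicates differed in their spread. Medium stipes 1 and 2 differed by a biological coefficient of variation of only 4.16% over all gene models, and late caps 2 and 3 by 4.05%, whereas the other pairs within a group differed by 9.30% to 39.2%. The labels number these libraries as separate replicates, whereas a figure caption of the paper counts fewer biological replicates than libraries for the basidiocarp stages. Whether each pair came from separate basidiocarps could not be checked. If not, medium stipes and late caps have 2 independent libraries in place of 3. Averaging each of these nearly alike pairs into 1 value gave 142 gene models, 132 of them among the 140. Medium stipe 3 stood apart from medium stipes 1 and 2, at 39.2% and 38.9%. Of 3 gene models tied to stipe elongation by their likeness to Eln3 of *Coprinopsis cinerea*, none was among the 140 and none was called higher in stipes, and in late basidiocarps 2 were called lower in stipes than in caps. Among 98 gene models for ribosomal proteins, 82 were called lower in late stipes than in late caps. Among 11 for meiosis 2 were, where 14.8% of all gene models tested were called lower. These lists came from the study's tables, some of which list genes by their change in these libraries. Their counts and the share of all gene models are therefore not a like comparison.

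The median stipe to cap ratio was 2.80 in early, 3.32 in medium and 3.20 in late basidiocarps, where the rule set the lower end at 2. The highest ratios were 15.9, 20.4 and 12.5. A ratio of 4 or more was found for 25 genes in early, 56 in medium and 41 in late basidiocarps. Taking for each gene the smallest of its 3 ratios, the median was 2.46, 33 genes reached 3, 9 reached 4 and 4 reached 5. Gene models 178543, 687175 and 313935 were just inside the bound, with smallest ratios of 2.00, 2.00 and 2.01, and without medium stipe 3 the medium ratio of 687175 was 1.37 instead of 2.29. Gene models 482887, 699628 and 617255 met all other bounds and were just outside it, at 1.99 each.

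**Figure D1:**
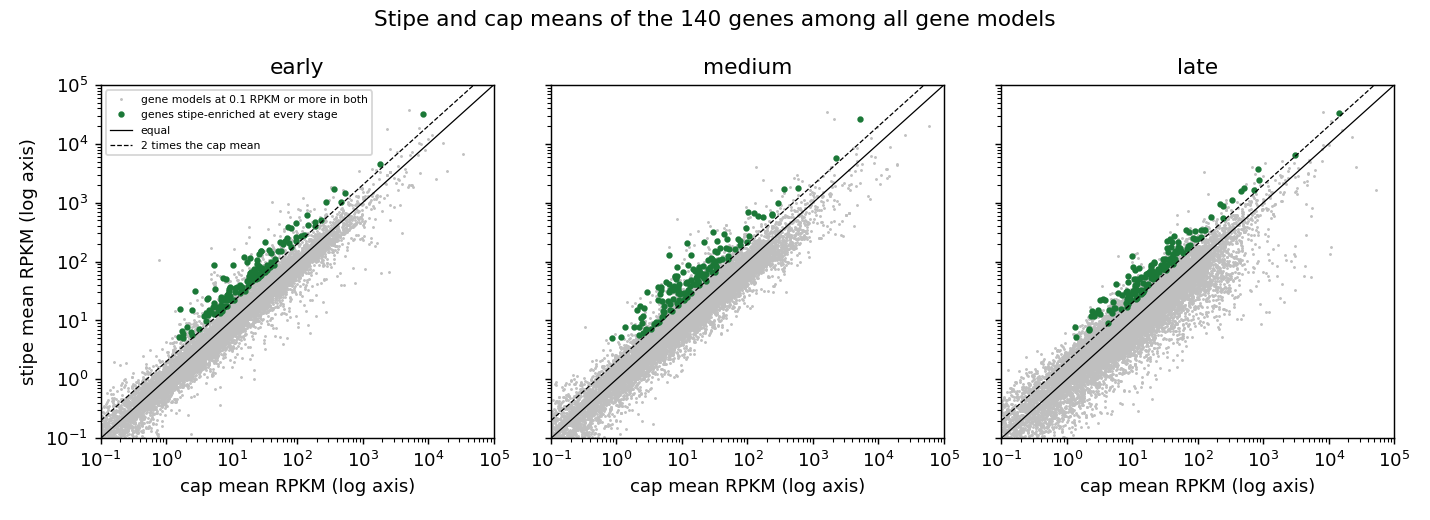
Mean RPKM of 3 stipe libraries against mean RPKM of 3 cap libraries in early, medium and late basidiocarps, both on log axes, for the 140 stipe-enriched genes (green) and the other gene models with 0.1 RPKM or more in both tissues (grey). The solid line marks equal means and the dashed line 2 times the cap mean, on or above which the rule places all 140 genes. Their highest stipe mean is 33322 RPKM, that of 293818 in late basidiocarps.

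Levels covered a wide range. The mean of the 3 stipe group means was between 6.31 and 30676 RPKM, with a median of 56.0. It exceeded 1000 RPKM for 6 genes, lay between 100 and 1000 for 35, between 10 and 100 for 94 and under 10 for 5. Together the 140 genes took 4.78% to 7.96% of the reads of a stipe library, against 1.18% to 2.98% of a cap library. The most abundant of them took a large part of these reads, and without it the shares were 2.63% to 5.51% in stipes, against 0.761% to 1.99% in caps. In the fit of all 16485 gene models that passed the filter on low counts, 113 of the 140 were called higher in early stipes, where 2.98% of all tested gene models were called. In medium stipes 118 were called (5.05% of all tested), and in late stipes 123 (9.55%). The rule leaves no gene with a lower stipe mean, and none was called lower, where 2.18%, 6.47% and 14.8% of all tested were called lower in early, medium and late stipes. At all 3 stages 99 genes were called (1.01%), 23 were called at 2 stages, 11 at 1 and 7 at none. Without early cap 2, 61 were called in early stipes, where 221 of all 16615 tested gene models were called instead of 491. In a fit of the medium libraries alone 58 were called in medium stipes, where 213 of 16015 were called instead of 832. Since the rule used the same contrasts, nothing is read from these counts.

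Libraries overlapped for a part of the genes. All 3 stipe libraries were above all 3 cap libraries for 132 genes in early basidiocarps (10.9% of all tested gene models), for 115 in medium (14.4%) and for 138 in late ones (33.6%). For 109 genes this held at every stage (4.3%), and for 59 the lowest of the 9 stipe libraries was above the highest of the 9 cap libraries (1.37%). The overlaps were mostly in medium basidiocarps. Medium stipe 3 was above both other medium stipes for 103 genes, it was over 2 times their mean for 58 and under 0.5 times for 14. Without medium stipe 3, the median medium ratio was 2.53 instead of 3.32, 45 genes had a medium ratio under 2 and 10 had a ratio under 1, that is, a higher mean in the caps. Applied without that library, the rule found 90 gene models, 87 of them among the 140. Medium stipes 1 and 2 were nearly alike, so that the medium stipe mean rested on little more than 2 distinct values. Whether medium stipe 3 or the other pair stood closer to a typical stipe of this stage was not tested.

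**Figure D2:**
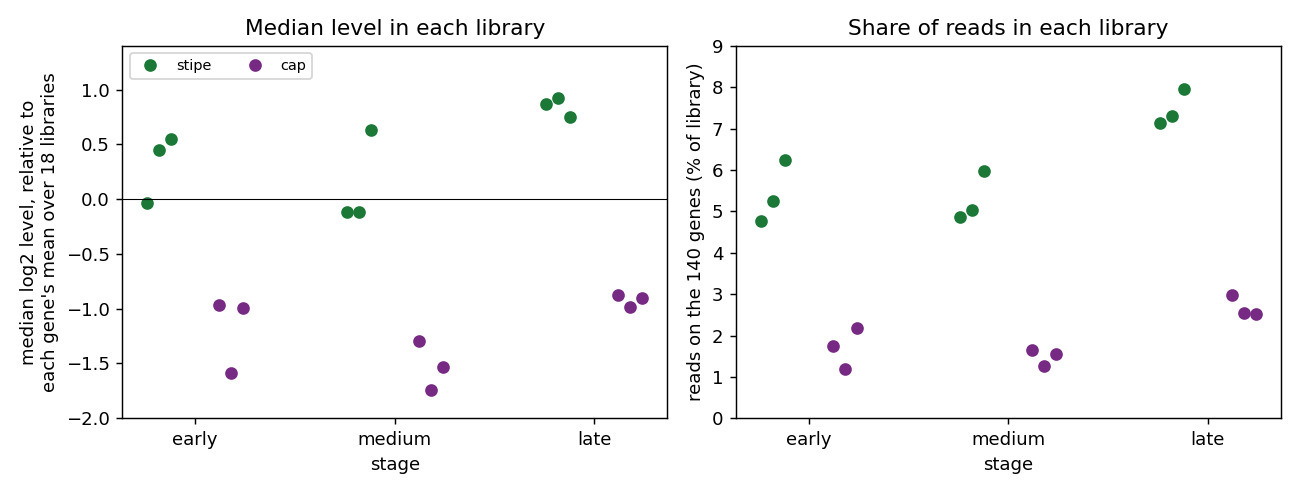
Left, the median over the 140 genes of the log2 level in each library, relative to the mean of each gene over the 18 libraries. Right, the share of a library's reads on the 140 genes in percent; each dot is 1 library, stipes in green and caps in purple, and all stipe libraries (4.78% to 7.96% of reads) lie above all cap libraries (1.18% to 2.98%).

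By the words of the annotation at hand, 61 of the 140 genes were placed in 7 role groups, namely 14 other enzymes, 12 transporters, 10 regulators, 9 small secreted proteins, 7 proteins with interaction domains, 5 carbohydrate-active enzymes and 4 peptidases. The annotation held 112 of the 140 genes, and 74 had no word for a function. The median transcript length was 1297 bases (180 to 4759), against 1140 for the 12678 gene models that reached 5 RPKM in a group. A RefSeq gene was matched for 46 genes (32.9%), against 28.4% of all gene models, and 3 of them had a symbol, all of mycorrhiza-induced small secreted proteins (MISSP).

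**Figure D3:**
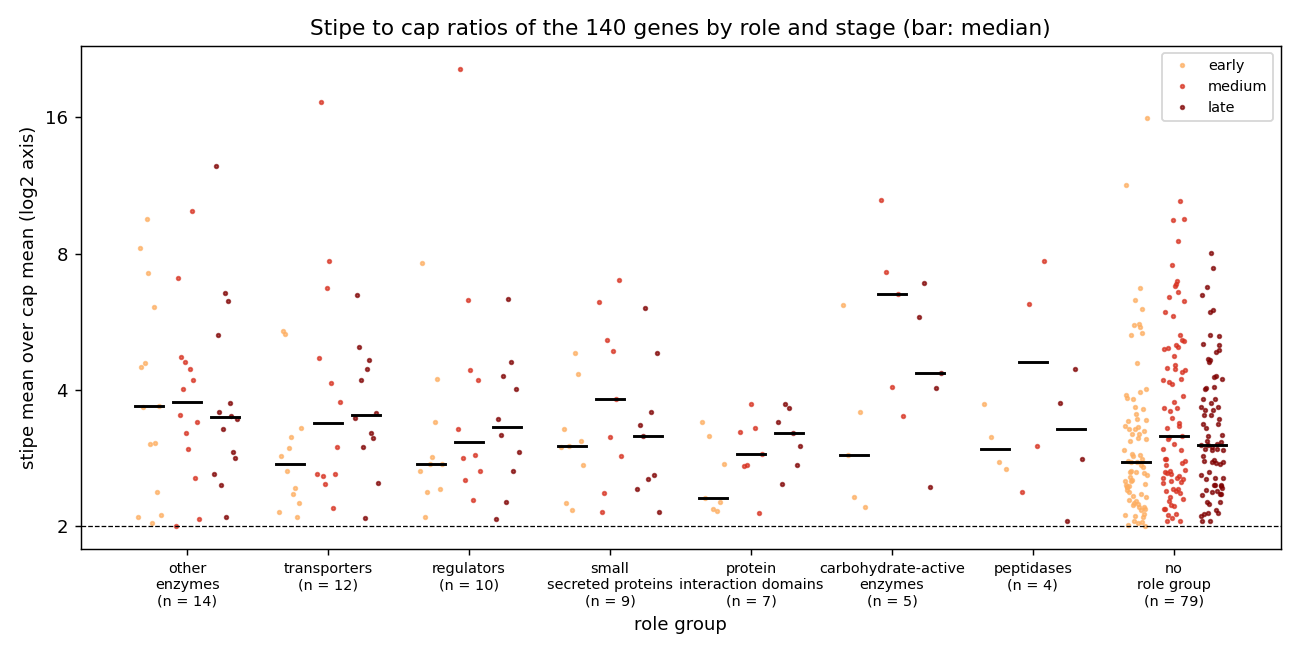
Ratio of the stipe mean to the cap mean (log2 axis) for each of the 140 genes, by role group and stage, with a bar at the median. The dashed line is the bound of 2 set by the rule; the carbohydrate-active enzymes had a median of 6.50 in medium basidiocarps, with 5 genes, and the genes in no role group medians of 2.78, 3.17 and 3.03.

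The 5 carbohydrate-active enzymes cut or oxidize sugar polymers and simple sugars, and all 5 were higher in every stipe library than in every cap library. Their median ratio was 2.87 in early, 6.50 in medium and 4.37 in late basidiocarps. Gene models 185397 and 236861 belong to glycoside hydrolase family 18, the family of fungal chitinases. Gene model 185397 had 22.9, 41.7 and 39 RPKM in early stipes, against 3.63, 3.72 and 9.49 RPKM in early caps. It had 14, 14.6 and 63.2 RPKM in medium stipes, against 3.41, 2.46 and 2.86 RPKM in medium caps. It had 23.9, 25.1 and 18.2 RPKM in late stipes, against 3.07, 4.10 and 4.44 RPKM in late caps. The highest stipe value was that of medium stipe 3, without which the medium ratio was 4.93 instead of 10.5, and the highest cap value that of early cap 3. Gene model 236861 was at 11 to 23.4 RPKM (median 20.9) in the 9 stipe libraries, against 1.96 to 8.47 RPKM (median 3.15) in the 9 cap libraries. A protein of the AA5 family of copper radical oxidases, which make hydrogen peroxide from aldehydes or alcohols (247761), was at 55.2 to 129 RPKM (median 84) in the 9 stipe libraries, against 12.1 to 53 RPKM (median 30.3) in the 9 cap libraries. Gene model 460250, whose counterpart in *C. cinerea* has a family 5 glycoside hydrolase domain, was at 15.8 to 64.1 RPKM (median 30.5) in the 9 stipe libraries, against 4.59 to 12.2 RPKM (median 7.60) in the 9 cap libraries. For gene model 641501, annotated with glucan 1,4-alpha-glucosidase activity, the glucose-releasing activity on starch-like glucans, the range was 44.2 to 130.2 RPKM (median 59.7) in the 9 stipe libraries, against 8.31 to 30.9 RPKM (median 20.5) in the 9 cap libraries. In the list of 143 tested carbohydrate-active enzymes of the annotation, 16 were called higher and 8 lower in early stipes, 25 higher and 11 lower in medium stipes, and 19 higher and 38 lower in late stipes. Their median log2 fold changes were 0.19, 0.19 and -0.12, against -0.02, 0.01 and 0.01 over all gene models tested. Annotated gene models were in part chosen by the study for change, so these values are not a like comparison.

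The peptidases were led by gene model 637700, a secreted fungalysin (family M36), a zinc metallopeptidase that degrades extracellular protein. It was the third most abundant of the 140 genes and had 1208, 1518 and 1682 RPKM in early stipes, against 508, 501 and 576 RPKM in early caps. Medium basidiocarps gave 2101, 2059 and 1260.2 RPKM in medium stipes, against 581, 425 and 796 RPKM in medium caps. In late basidiocarps the values were 3227, 4803 and 2998 RPKM in late stipes, against 1021, 724 and 729.7 RPKM in late caps. Stipes were above caps without overlap at each stage, and it met the rule with any single library left out. Its mean in late stipes was 2.50 times that in early stipes, and 1.56 times in caps. The papain-type cysteine peptidase 701323 was at 6.27 to 30.5 RPKM (median 18) in the 9 stipe libraries, against 1.72 to 9.49 RPKM (median 2.79) in the 9 cap libraries, and late values were the highest in both tissues. The metallopeptidase 624732 had ratios of 3.16, 6.19 and 2.05, with a medium ratio of 3.50 without medium stipe 3. The gene model for a subtilase-type serine peptidase (299797) had ratios of 3.73, 2.39 and 3.74, and medium stipes overlapped medium caps, with a medium ratio of 1.31 without medium stipe 3. Of 123 tested peptidases and proteases, 12 were called higher and 2 lower in early stipes, 9 and 14 in medium stipes, and 25 and 19 in late stipes, with median log2 fold changes of 0.09, 0.07 and 0.25.

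Small secreted proteins are short proteins with a signal for export, most of them without a known function. The 9 among the 140 genes had stipe means of 16.9 to 1754 RPKM. The most abundant, 648174, had 648, 1593 and 2972 RPKM in early stipes, against 414, 259.7 and 409 RPKM in early caps. It had 510.3, 533 and 4157 RPKM in medium stipes, against 594, 258 and 216 RPKM in medium caps. It had 2145, 1439 and 1789.5 RPKM in late stipes, against 569, 471 and 466 RPKM in late caps. Medium stipes 1 and 2 were below medium cap 1, and without medium stipe 3 the medium ratio was 1.47 instead of 4.87. Gene model 690494 was highest in early stipes, with 681, 608 and 557 RPKM in early stipes, against 120.3, 114 and 191 RPKM in early caps. The values were 354, 367 and 378 RPKM in medium stipes, against 83.3, 101 and 103 RPKM in medium caps, and 219, 124 and 211 RPKM in late stipes, against 89.1, 62.2 and 61.4 RPKM in late caps. It was called lower in late than in early stipes, and its late stipe mean was 0.30 times the early one, whereas stipes kept above caps at each stage without overlap. A like pattern was found for 694659, with a late mean of 0.27 times the early one in stipes and 0.34 times in caps. Gene model 486173 had ratios of 2.17, 3.16 and 2.55, with a medium ratio of 1.11 without medium stipe 3.

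The 3 genes with a MISSP symbol encode secreted proteins known from the symbiosis of *L. bicolor* with tree roots, where their transcripts accumulate in colonized root tips. MISSP13.7 (326045) had 19.1, 19 and 30.4 RPKM in early stipes, against 7.13, 5.69 and 9.91 RPKM in early caps. The values were 38.2, 36.5 and 41.2 RPKM in medium stipes, against 6.26, 6.63 and 9.57 RPKM in medium caps, and 68.3, 99.3 and 64.5 RPKM in late stipes, against 14.3, 12.5 and 11.5 RPKM in late caps. Stipe libraries lay above all cap libraries, and the late stipes were the highest. MISSP6.5 (308110) was at 7.26 to 38.8 RPKM (median 21.1) in the 9 stipe libraries, against 2.12 to 12.3 RPKM (median 8.64) in the 9 cap libraries, so that some stipe libraries lay below some cap libraries of another stage. MISSP24.2 (293250) was at 11.2 to 25.1 RPKM (median 16.5) in the 9 stipe libraries, against 1.89 to 9.12 RPKM (median 4.84) in the 9 cap libraries. In the list of 241 tested small secreted proteins, 14 were called higher and 33 lower in early stipes, 24 and 54 in medium stipes, and 29 and 97 in late stipes. The median log2 fold changes were -0.01, -0.31 and -0.71.

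Transporters made up 12 of the 140 genes, with median ratios of 2.75, 3.37 and 3.52 in early, medium and late basidiocarps. The most abundant was an amino acid permease (188015), a carrier that takes up amino acids with protons. It had 383, 523 and 600.3 RPKM in early stipes, against 256, 189 and 254 RPKM in early caps. It had 485, 489.7 and 901 RPKM in medium stipes, against 342, 184 and 193 RPKM in medium caps. It had 1709, 1547 and 1571 RPKM in late stipes, against 450, 466 and 473 RPKM in late caps. Late stipes were 3.20 times early stipes in the mean and late caps 1.99 times early caps, and both changes were called. A member of the major facilitator superfamily (297571), the large family of sugar and other small-molecule carriers, had 102, 429 and 611 RPKM in early stipes, against 112, 39.6 and 63.2 RPKM in early caps, where early stipe 1 lay below early cap 1. In late basidiocarps it had 1104, 1102 and 591 RPKM in late stipes, against 250.2, 209.8 and 206 RPKM in late caps.

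Gene model 295862, a counterpart of the acetate transporter family GPR1/FUN34/SatP, had the highest medium ratio among the transporters, 17.3. Its values were 42.3, 40.6 and 528 RPKM in medium stipes, against 13.4, 10.9 and 11.1 RPKM in medium caps. The mean rested on medium stipe 3, and without it the ratio was 3.52. In early basidiocarps it had 80.5, 279.9 and 93.3 RPKM in early stipes, against 18, 20.5 and 45.5 RPKM in early caps, and in late ones 224, 145 and 141 RPKM in late stipes, against 32.1, 35.4 and 35.1 RPKM in late caps. Ion carriers were a potassium uptake permease of the KUP family (482899) with ratios of 2.43, 2.19 and 3.21, a nickel and cobalt transporter (297934) with 2.64, 2.48 and 2.99, a monovalent cation to proton antiporter (616629) with 2.10, 2.62 and 3.14 and a divalent ion symporter (688973) with 3.29, 3.76 and 2.49. Of these 4, all but the antiporter had every stipe library above every cap library. Without medium stipe 3 the medium ratio of 482899 was 1.53, under the bound of 2. ABC transporters, which move substrates across membranes at the cost of ATP, were 314719 with ratios of 3.14, 7.70 and 4.45 and 307042 with 2.99, 6.70 and 2.09, the medium ratio of 307042 being 3.33 without medium stipe 3. A xanthine and uracil permease (253376) was at 16.7 to 92.5 RPKM (median 30.6) in the 9 stipe libraries, against 7.15 to 11.8 RPKM (median 9.58) in the 9 cap libraries, and it was called higher in late than in early stipes. Its medium ratio was 4.71, and 2.06 without medium stipe 3. Gene model 482773, a counterpart of the major facilitator superfamily, had ratios of 2.36, 4.14 and 4.66.

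In the lists, 12 of 73 tested gene models of the major facilitator superfamily were called higher and 3 lower in early stipes, 10 and 10 in medium stipes, and 16 and 12 in late stipes. Of 29 ABC transporters, 2, 5 and 6 were called higher in early, medium and late stipes, against 0, 0 and 1 called lower. Their median log2 fold changes were 0.27, 0.66 and 0.62. Of 17 amino acid permeases, 1, 3 and 6 were called higher, and 1, 0 and 1 lower. Of 16 mitochondrial carriers, none of which was among the 140 genes, 0, 0 and 1 were called higher, and 0, 3 and 7 lower.

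The other enzymes included some annotated with lipid, sterol and redox functions. A gene model related to phosphatidylserine decarboxylase (702542), the enzyme that makes phosphatidylethanolamine of membranes, had 828, 941 and 1295 RPKM in early stipes, against 250.1, 203 and 377 RPKM in early caps. It had 1215, 1196 and 594 RPKM in medium stipes, against 275, 238 and 372 RPKM in medium caps. It had 2282, 2070.5 and 3036 RPKM in late stipes, against 964, 818 and 826 RPKM in late caps. The groups did not overlap at any stage, and late levels were the highest in both tissues. Gene model 589231 has an NAD-dependent epimerase/dehydratase domain, and its annotation lists a sterol dehydrogenase activity on carbon 3 among several. It had 43, 48.5 and 147 RPKM in early stipes, against 47.5, 22.8 and 46.8 RPKM in early caps, with overlap of the tissues. In late basidiocarps it had 238, 258 and 223 RPKM in late stipes, against 40.1, 35.6 and 38.4 RPKM in late caps, without overlap. Its stipe to cap ratio was thus 2.04 in early, 4.44 in medium and 6.30 in late basidiocarps.

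Gene model 293890, with FAD binding and L-gulonolactone oxidase activity (an oxidase of sugar-acid lactones), had the highest smallest ratio of all 140 genes, 7.08. Its values were 60.9, 133 and 66.2 RPKM in early stipes, against 10.7, 8.35 and 12.6 RPKM in early caps. They were 13.9, 14.7 and 139 RPKM in medium stipes, against 11.8, 6.40 and 5.49 RPKM in medium caps. They were 253, 41 and 80.5 RPKM in late stipes, against 10.7, 9.76 and 9.60 RPKM in late caps. Caps stayed between 5.49 and 12.6 RPKM, whereas stipes spread widely within a stage, and the medium ratio without medium stipe 3 was 1.81. A glutathione transferase (596678), which couples glutathione to toxic or oxidized compounds, had 54, 59.8 and 544 RPKM in medium stipes, against 32.8, 14.6 and 18.9 RPKM in medium caps, and ratios of 6.10, 9.94 and 3.74, where the medium ratio without medium stipe 3 was 2.58. An NADPH dehydrogenase (457590) had 130.3, 128 and 1503 RPKM in medium stipes, against 274, 107 and 58.2 RPKM in medium caps. It was called at no stage, and without medium stipe 3 its medium ratio was 0.881. Gene model 315146, a counterpart of the psi-factor producing oxygenases, which form oxylipins that signal in fungal development, had 16.8, 17.2 and 163 RPKM in medium stipes, against 33.1, 9.13 and 13.7 RPKM in medium caps and, in late basidiocarps, 446, 65.9 and 131 RPKM in late stipes, against 39.7, 39.4 and 42.3 RPKM in late caps. Its medium ratio without medium stipe 3 was 0.911. Malic enzyme (705233), which turns malate into pyruvate, had ratios of 2.12, 2.08 and 3.45, and all 9 stipe libraries were above all 9 cap libraries. Its medium ratio was 1.95 without medium stipe 3, under the bound of 2, and it left the set in 4 of the 18 runs without a library. An aldo/keto reductase (441000) had ratios of 3.68, 4.74 and 3.57, and a flavin-containing monooxygenase (478195) of 7.26, 3.21 and 6.54. For 478195 medium stipes overlapped medium caps. Without medium stipe 3, the medium ratios of 441000 and 478195 were 2.41 and 1.26. Of 321 tested oxidoreductases, 29, 34 and 38 were called higher in early, medium and late stipes, against 18, 28 and 49 called lower, with median log2 fold changes of 0.07, 0.08 and 0.02.

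**Figure D4:**
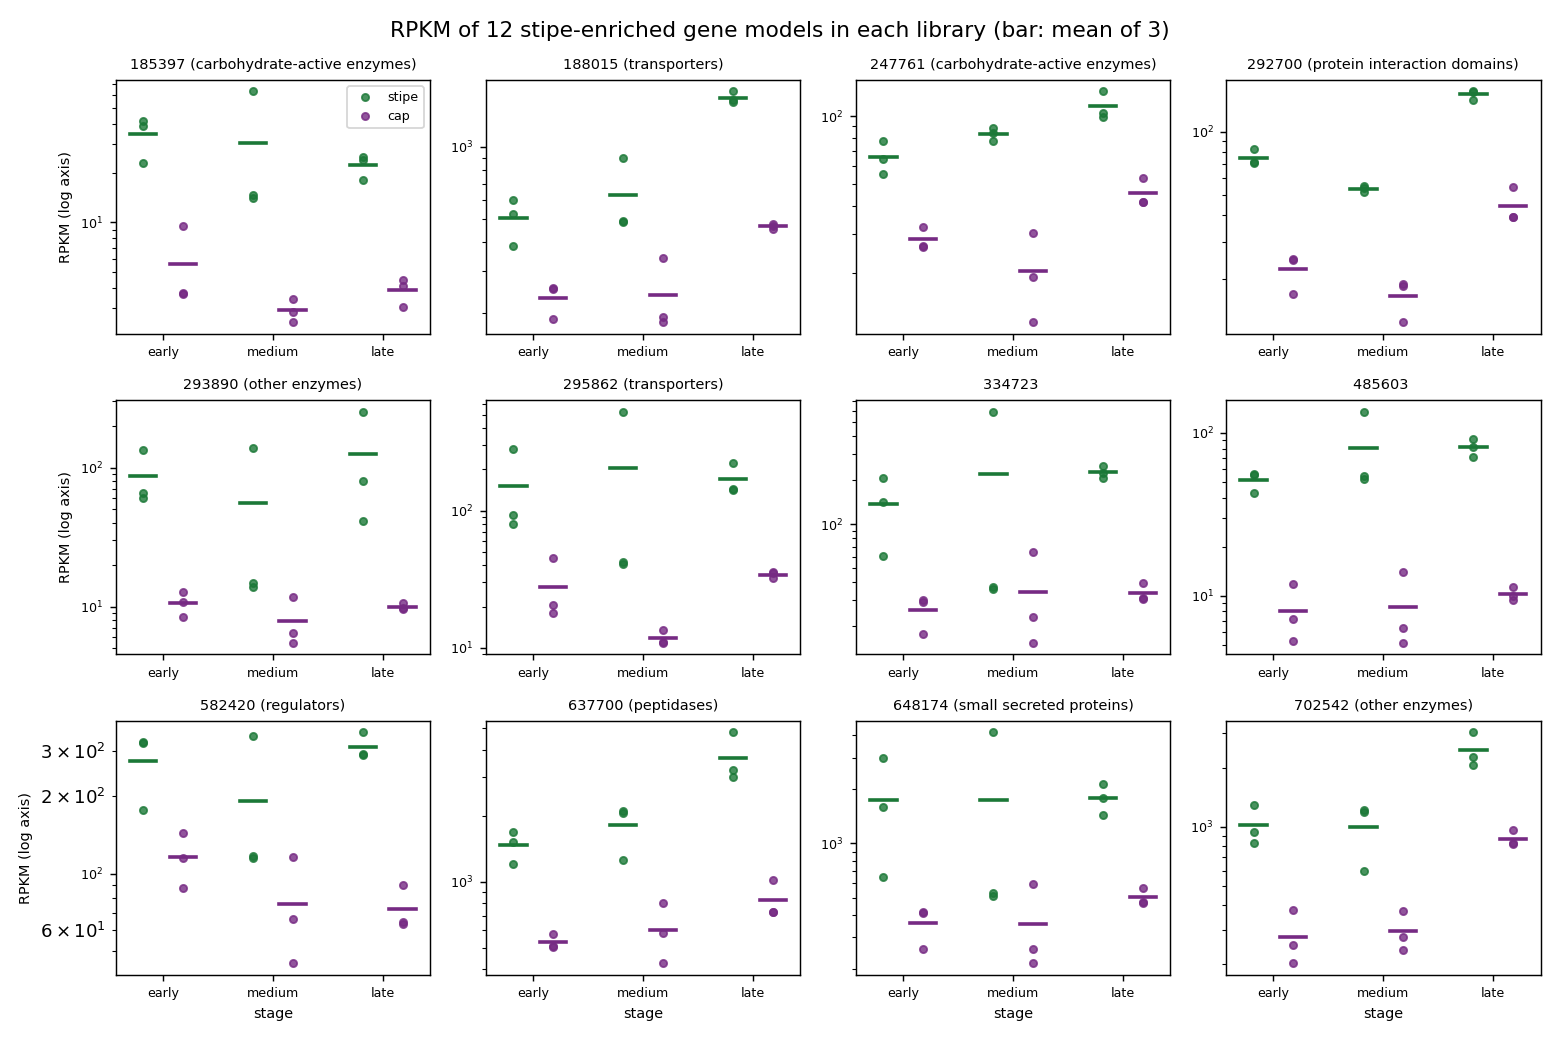
RPKM (log axis) in each library for 12 of the 140 genes, the most abundant of each role group and the further ones with the highest smallest ratio; dots are libraries, bars are means of 3, stipes in green stand left of caps in purple. Cap dots lie close together in late basidiocarps, and in medium stipes a single library, medium stipe 3, lies far above the other pair for 295862 (528 RPKM), 334723 (589 RPKM) and 648174 (4157 RPKM).

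Regulators included signalling proteins and putative transcription factors. Gene models 643828 and 313875 are counterparts of the Gti1/Pac2 family of fungal regulators, known for the control of sporulation and of switches in growth form in other fungi. Gene model 643828 had 222, 199 and 209 RPKM in early stipes, against 73.9, 59.8 and 87.9 RPKM in early caps. It had 153, 156 and 204 RPKM in medium stipes, against 34.4, 40.3 and 41.1 RPKM in medium caps. It had 233, 333 and 266 RPKM in late stipes, against 46, 43.6 and 41.7 RPKM in late caps. The lowest stipe library, at 153 RPKM, was above the highest cap library, at 87.9 RPKM. Gene model 313875 took the other course. It had 155, 111 and 91.3 RPKM in early stipes, against 18.8, 9.0 and 19.1 RPKM in early caps, then 169.8, 178 and 42.9 RPKM in medium stipes, against 5.91, 6.85 and 6.34 RPKM in medium caps, and in late basidiocarps 46.7, 33.8 and 44.1 RPKM in late stipes, against 11.7, 12 and 12.3 RPKM in late caps. Its medium ratio of 20.4 was the highest of all 140 genes at that stage, and here medium stipe 3 was the lowest stipe, so that the ratio without it was 27.3. Its late stipe mean was 0.35 times the early one and was called lower.

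Gene model 582420 is a counterpart of cyclin-like proteins, the family that activates cell cycle kinases. It had 177, 325 and 324 RPKM in early stipes, against 144, 88 and 115 RPKM in early caps. Medium stipes had 115, 117 and 345 RPKM, against 66.7, 44.7 and 116 RPKM in medium caps. Medium stipes 1 and 2 were near medium cap 3, and without medium stipe 3 the medium ratio was 1.52 instead of 2.53. The protein kinases 524684 and 708139, which phosphorylate other proteins, had ratios of 2.09, 2.83 and 3.19 and of 2.75, 2.65 and 2.92. A counterpart of the G protein alpha subunits (586784), which pass signals from membrane receptors, had ratios of 2.75, 6.31 and 2.26, and a zinc cluster protein of the fungal Zn(2)-C6 kind (701951), a class of DNA-binding proteins, of 2.42, 4.20 and 4.03. Without medium stipe 3 the medium ratio of 701951 was 1.67. Another G protein signalling gene model (309452) had 13.7, 14.8 and 139.7 RPKM in medium stipes, against 20.2, 13.2 and 17.8 RPKM in medium caps and was called at no stage, and its medium ratio was 0.836 without medium stipe 3 and 3.29 with it. Gene model 649610, annotated with GTP binding, had ratios of 3.40, 2.28 and 4.60, with a medium ratio of 1.25 without that library. None of the 78 tested gene models that the transcription factor column lists was among the 140, and 6, 15 and 14 of them were called higher in early, medium and late stipes, against 3, 4 and 8 called lower. Of 144 protein kinases, 9, 13 and 23 were called higher and 2, 4 and 22 lower.

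Among the 7 proteins with interaction domains, 3 had an F-box, 2 a BTB/POZ and 2 a MYND domain. F-box and BTB proteins recruit other proteins to ubiquitin ligases, and MYND zinc fingers bind other proteins. The F-box gene model 696306 had 23.9, 29.5 and 39.6 RPKM in early stipes, against 15.8, 7.18 and 10.8 RPKM in early caps and 103, 131 and 125 RPKM in late stipes, against 41.1, 39.5 and 39.2 RPKM in late caps. Its late means were 3.87 times the early ones in stipes and 3.54 times in caps. The other F-box gene models were 462004, with ratios of 3.17, 2.74 and 3.73, and the counterpart 330103, with 2.31, 2.72 and 2.49. The BTB/POZ gene models were 292700, with ratios of 3.40, 3.23 and 3.39, and 466261, with 2.18, 3.73 and 3.66. For the MYND gene models 600776 and 601083, ratios were 2.16, 3.30 and 3.22 and 2.27, 2.14 and 2.73. Of 40 tested F-box proteins, 9, 14 and 9 were called higher in early, medium and late stipes, against 1, 0 and 4 called lower. The median log2 fold changes of this list were 0.59, 0.84 and 0.55. Heat shock proteins and chaperones had 1 member among the 140, the MYND protein 601083, but 11, 17 and 26 of 85 were called higher in stipes and 0, 3 and 4 lower, with medians of 0.31, 0.56 and 0.64.

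The genes without a role group numbered 79, and the leading ones by level were among them. Gene model 293818, without any word for a function, was the most abundant by far. It had 33084, 23881 and 41000.0 RPKM in early stipes, against 6621, 4164 and 14323 RPKM in early caps. It had 31274, 33938 and 12937 RPKM in medium stipes, against 4106, 7643 and 4109.7 RPKM in medium caps. It had 27576, 27464 and 44927 RPKM in late stipes, against 15295, 13958 and 13306 RPKM in late caps. Stipes were above caps at each stage, but early cap 3 and all late caps exceeded medium stipe 3, and without late stipe 3 the gene model no longer met the rule. The next, 293272, had 3379, 6221 and 4077 RPKM in early stipes, against 2313, 1406 and 1709 RPKM in early caps, then 3582, 3556 and 10304 RPKM in medium stipes, against 3000.4, 1041 and 2792 RPKM in medium caps, and in late basidiocarps 6925, 5821 and 6942 RPKM in late stipes, against 3626, 2846 and 2849 RPKM in late caps. Without medium stipe 3 its medium ratio was 1.57 instead of 2.55.

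Gene model 591729 was without overlap over all libraries, at 266 to 950.2 RPKM (median 801) in the 9 stipe libraries, against 48.9 to 249.6 RPKM (median 125) in the 9 cap libraries. Gene model 657794, which the annotation places in signal transduction, was at 341 to 1305 RPKM (median 505) in the 9 stipe libraries, against 104 to 354 RPKM (median 152) in the 9 cap libraries. Gene model 318873 was at 331 to 1049 RPKM (median 540.0) in the 9 stipe libraries, against 127 to 229 RPKM (median 166) in the 9 cap libraries. Without medium stipe 3 the medium ratio was 2.82 instead of 5.28 for 657794 and 1.92 instead of 3.29 for 318873. Gene model 657204 was at 108 to 379.5 RPKM (median 278) in the 9 stipe libraries, against 6.24 to 91.9 RPKM (median 41) in the 9 cap libraries, and its ratios were 5.35, 10.4 and 3.66. Gene model 678241 was at 477 to 1815 RPKM (median 1032) in the 9 stipe libraries, against 157 to 902 RPKM (median 456) in the 9 cap libraries, with ratios of 2.21, 2.75 and 2.26.

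The gene models with the highest smallest ratios also included several without a function. Gene model 485603 had 55.9, 55 and 42.5 RPKM in early stipes, against 7.19, 5.30 and 11.8 RPKM in early caps. It had 54.5, 52 and 135 RPKM in medium stipes, against 14, 6.35 and 5.15 RPKM in medium caps. It had 91.3, 82.4 and 70.9 RPKM in late stipes, against 11.2, 9.44 and 9.89 RPKM in late caps. All stipes were at least 3 times the highest cap value of 14.0 RPKM, and it met the rule whichever library was left out. Its medium ratio was 6.27 instead of 9.48 without medium stipe 3. Gene model 479532 had ratios of 5.56, 7.53 and 4.65, with a medium ratio of 4.42 without medium stipe 3, and left the set in 7 of the 18 runs without a library. Gene model 611695 was at 22.4 to 39 RPKM (median 29.7) in the 9 stipe libraries, against 2.68 to 6.32 RPKM (median 5.65) in the 9 cap libraries, with little spread in stipes. Gene model 635490 was at 108 to 448 RPKM (median 177) in the 9 stipe libraries, against 22.9 to 74.6 RPKM (median 47.6) in the 9 cap libraries, and without medium stipe 3 its medium ratio was 2.91 instead of 4.98. Gene model 303536 had low levels, at 4.13 to 15.8 RPKM (median 6.98) in the 9 stipe libraries, against 0.715 to 3.22 RPKM (median 1.71) in the 9 cap libraries. Gene model 691725 was at 21.2 to 264 RPKM (median 62.7) in the 9 stipe libraries, against 3.34 to 48.2 RPKM (median 12.8) in the 9 cap libraries, and it left the set in 9 of these 18 runs, with a medium ratio of 4.55 instead of 9.52 without medium stipe 3. For 334723 the stipes spread widely, with 35.8, 37 and 589 RPKM in medium stipes, against 64.7, 23 and 15.4 RPKM in medium caps, and the medium ratio without medium stipe 3 was 1.06 instead of 6.42. The highest early ratio, 15.9, was that of 708050, with 20.2, 133 and 105 RPKM in early stipes, against 4.61, 2.37 and 9.24 RPKM in early caps. In medium basidiocarps it had 3.52, 3.90 and 57.3 RPKM in medium stipes, against 11.7, 1.96 and 0.959 RPKM in medium caps, with overlap and a medium ratio of 0.761 instead of 4.43 without medium stipe 3. In late ones it had 38.9, 10.6 and 36.2 RPKM in late stipes, against 6.64, 13.2 and 13.6 RPKM in late caps, also with overlap.

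Over the stages most of the 140 genes went the same way in both tissues. The late mean was above the early mean in both tissues for 78 genes and below it in both for 34. It was above only in stipes for 21 and only in caps for 7. The highest stipe mean was at the late stage for 89 genes, at the early stage for 26 and at the medium stage for 25. For caps these numbers were 77, 46 and 17. In the fit the median log2 fold change of late against early was 0.50 in stipes and 0.48 in caps, against -0.01 and -0.05 over all gene models tested. Called higher in late than in early stipes were 26 genes, where 7.63% of all tested gene models were called, and lower 5 (11.7%). In caps 25 were called higher (9.27%) and 4 lower (6.12%). In both tissues and in the same direction 16 were called (5.42% of all tested). The signed late against early change was called larger in stipes than in caps for 2 genes (4.62% of all tested), 643828 and 589231. It was called smaller for none (9.84%), and a rise counts here as larger than a fall. At an unadjusted p under 0.05 in edgeR, 7 of the 140 genes had the larger and 3 the smaller change in stipes. The share of all gene models was not counted at this bound. DESeq2 called 1 larger and 0 smaller, where 793 and 1822 of 19903 gene models were called. With only the groups compared the calls turned to 0 larger and 3 smaller, where 931 and 2037 of 16348 gene models were called. Without early cap 3 they turned to 0 larger and 2 smaller, where 635 and 1432 of 16581 were called. Without early stipe 1 the genes called higher in late stipes were 17 instead of 26, where 1054 of 16624 gene models were called higher. Without early cap 2 those called higher in late caps were 11 instead of 25, where 1447 of 16615 were called higher. Without early cap 3, late cap 2 or late cap 3, those called lower in late caps were 2 instead of 4. Of all gene models tested 923, 792 and 740 were then called lower, against 1009 with all libraries. The rule held stage means within 4 times of each other and kept each stipe mean above its cap mean, so that nothing is read from these counts.

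**Figure D5:**
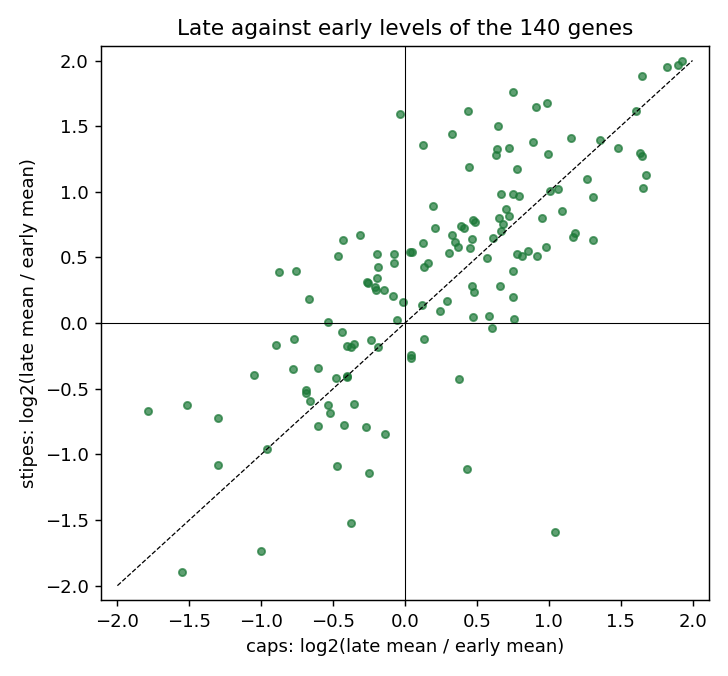
Log2 of the late mean over the early mean RPKM in stipes against the same in caps for the 140 genes, each dot a gene model. Most dots lie in the upper right (78 genes) or the lower left (34 genes), and the dashed line marks equal change in both tissues.

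Fitted log2 fold changes of late against early in stipes and in caps had a Pearson correlation of 0.738 across the 140 genes. Across all gene models tested it was 0.466. Genes are not independent replicates, the libraries are shared by all of them, and the rule itself ties stipe to cap levels. The rule kept late to early ratios within 4 times in either direction, so that the most extreme ones lie at its bound. The genes with the largest were 701323 (4.0 after rounding in stipes and 3.79 in caps) and 691725 (3.90 in stipes and 3.72 in caps). They left the set in 6 and 9 of the 18 runs without a library. The late to early ratio was lowest for 694659 in stipes, at 0.27, and for 588028 in caps, at 0.29. Within a group the genes varied least in late basidiocarps. The median coefficient of variation over 3 libraries was 17.5% in late stipes and 7.17% in late caps. It was 41.2% in medium stipes and 30.6% in medium caps, and 30.3% in early stipes and 24.9% in early caps. Late caps 2 and 3 were a nearly alike pair, as were medium stipes 1 and 2.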

How the data were processed

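Stipe and cap RNA of the 3 stages was sequenced in 18 libraries (TruSeq Stranded mRNA kit, paired reads). After trimming, the authors aligned reads to the *L. bicolor* version 2 reference transcripts in CLC Genomics Workbench 8. They deposited a raw read count per gene model and, derived from it by transcript length and library size, its RPKM. The sources used here do not give whether unique or total reads were counted or whether strand was used, so near-identical copies and overlapping gene models may share reads, which was not tested.

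Genes were chosen on RPKM, as means of 3 libraries, without a pseudocount. The members and the lists were chosen with earlier results of these data known. Counts were fitted in R 4.3.3 with edgeR 4.0.16 (TMM scaling, filterByExpr with the 6 groups, quasi-likelihood test over all 18 libraries), and a gene model was called where the absolute log2 fold change exceeded 1 with an adjusted p (Benjamini-Hochberg) under 0.05. Alternatives were DESeq2 1.42.0, RLE scaling, no filter on low counts, a replicate block, only the groups compared, other bounds of the rule, RPKM rescaled by TMM, group medians, log2(RPKM + 1), and each library left out in turn. Averaging or summing the nearly alike libraries was added after the data were seen. With a depth of 38976106 to 90888294 reads, a count of 0 would allow up to 3 reads, and this covers counting error only.

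Annotation words came from supplementary tables of the study, held in part, with 6705 gene models. Of these tables, some list fruiting-regulated transcripts or genes regulated in mycorrhiza and basidiocarps. The lists made from them are in part preselected for change in these libraries, so beside all gene models they are not a like comparison. For some gene models the words are those of the *C. cinerea* protein whose best match they are, called counterparts here. Lists and role groups were made by search words in these columns, the role groups after values were seen. Named were the 10 genes with the highest stipe mean, the 10 with the highest smallest ratio, up to 4 per list, those with a symbol, those next to the bound and the 5 with the largest late to early change in each tissue. Further genes were named for their role, or as a single extreme, after their values were seen. RefSeq genes were matched by number, with span at least the transcript length for 4399 of 4399 compared, within 2%. Its build differs, so no coordinates are given. Genomic neighbours, sequences and residues shared between members were not analysed here.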

Additional observations from a re-analysis of the deposited data

Results flagged for a closer look

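When the signed change between early and late stipes was compared with that between early and late caps, 2 of the 140 genes were called. Both had the larger signed change in stipes, a rise counting as larger than a fall, where 4.62% of all gene models tested were called higher. For the Gti1/Pac2 counterpart 643828 the difference was 1.0004 on the log2 scale, just over the bound of 1. The late against early log2 fold change was 0.41 in stipes and -0.59 in caps, and neither was called. The stipe means of 643828 were 210.2, 171 and 277 RPKM in early, medium and late basidiocarps, against cap means of 73.9, 38.6 and 43.7 RPKM. For 589231, with a sterol dehydrogenase activity among its annotations, the difference was 1.47. Its late means were 3.02 times the early ones in stipes and 0.98 times in caps. The rule used the same group means, so both are given as values. With DESeq2, RLE scaling or the replicate block 1 gene was called instead of 2, and without the filter on low counts or with the nearly alike libraries summed, 0 were called in either direction. Over all gene models the larger change was called for 793 with DESeq2, 714 with RLE scaling and 713 with the replicate block. It was called for 698 without the filter and for 531 with the nearly alike libraries summed. With only the groups compared, 0 were called with the larger and 3 with the smaller change in stipes, where 931 and 2037 gene models were called. Leaving out each library gave 0 to 5 with the larger change, where 504 to 951 of all gene models tested were called. The 5 were found without early stipe 3. None was called without early cap 1 or 3, medium cap 1 or 2, medium stipe 1 or 2, late cap 2 or 3, or late stipe 2 or 3. The smaller change was called for 2 without early cap 3, for 1 without medium stipe 3 and for 0 without any of the other 16 libraries.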

How the results depend on the processing

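The number of genes that met the rule depended on its bounds and on single libraries. Group medians in place of means gave 85 gene models, 67 of them among the 140. A ratio of at least 1.5 gave 395 and of at least 3 gave 33, and a highest stage mean under 2 times the lowest gave 57. Rescaling the RPKM by TMM gave 160 (135 shared), stipe means of at least 1 or 10 RPKM gave 155 and 122, no bound on stages gave 184, and asking for libraries without overlap gave 109. Leaving out each library gave 90 (without medium stipe 3) to 155 gene models, and 41 of the 140 genes stayed in all 18 of these sets. The choice of the genes all but fixed the sign of their mean log2 ratio over the stages. Among 54 named genes and 20 alternatives each, 1 value of this mean moved by more than the spread between replicates, that of 303536, at 1.74 with log2(RPKM + 1) instead of 2.29. Ratios at a single stage moved further, and without medium stipe 3 the medium ratio was under 1 for 10 of the 140 genes.

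Over all gene models tested, 850 were called in early, 1898 in medium and 4013 in late stipe against cap, 3180 in late against early stipes, 2537 in caps and 2384 in the interaction. A fit of only the medium libraries called 478. With single libraries left out the calls were 446 (without early cap 2) to 1099 in early, 1082 (without medium cap 2) to 3230 (without medium cap 3) in medium, 3552 to 4142 in late, 2707 to 3500 in stipes over the stages, 2271 to 2661 in caps and 1860 to 2762 in the interaction. The cause was not tested.

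Whether same-numbered stipes and caps came from the same basidiocarps was not given. Their deviations from the group means correlated by -0.501 to 0.172, and those of differently numbered stipes and caps by -0.499 to 0.562. Deviations from a mean of 3 libraries depend on each other, so these values cannot decide the pairing. With the replicate number as a block, 814, 1813 and 3977 gene models were called in early, medium and late stipe against cap, 3110 and 2488 over the stages in stipes and caps, and 2273 in the interaction. The precision is limited by 3 libraries per group and by the nearly alike pairs.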
